A study of Mus musculus with 9 samples.

Results

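Endothelial cells line blood and lymph vessels, and 32 genes known for their use in these cells were followed through RNA-seq of whole mouse pancreas at stage e18.5, shortly before birth. The genes were taken from a list by name. It holds receptors and ligands of vessel growth, junction and adhesion proteins, other surface proteins, transcription factors and secreted proteins. All 32 were present among the 55453 gene symbols of the count files, and all 32 were among the 19166 genes with enough reads to be tested.

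The libraries fall into 3 groups of 3. They are Pdx1:Cre;Grg3Grg4 pancreas (Grg3 Grg4-labelled), Pdx1:Cre;Grg3 pancreas (Grg3-labelled) and Pdx1:Cre pancreas, which served as the control. All embryos were of a mixed C57BL6 background, and all groups carry Pdx1:Cre, so the Cre driver does not set them apart. Pdx1 is active in the pancreatic epithelial lineage, which gives rise to acinar, duct and endocrine cells, and endothelial cells come from another lineage. Grg3 and Grg4 are names of Tle3 and Tle4, members of the Groucho family of transcriptional co-repressors. The labels do not say which exons the Grg alleles lack or change. The design text counts embryos, and the sources used here do not say whether RNA was pooled.

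Gene counts summed to 46817453 to 62744499 per library. Levels are given as CPM, gene counts scaled to a common total, after TMM scaling, which corrects for a few abundant genes taking a different share of the reads. Tle3 stood at 126 to 146 CPM in the Grg3 Grg4-labelled libraries, at 145 to 167 CPM in the Grg3-labelled libraries and at 63.1 to 67.7 CPM in the controls. Tle4 stood at 8.63 to 15.5 CPM, at 9.83 to 13.8 CPM and at 7.68 to 7.85 CPM in the same groups. Counts over the whole gene are thus higher, not lower, in the mutant libraries. The alleles are not described, so these counts do not check the genotypes, and the directions below are between libraries as labelled. Sex-linked genes marked 5 libraries as male, namely all Grg3 Grg4-labelled ones and 1 in each other group.

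Vessel growth is driven largely by VEGF, which acts on the receptors Kdr (VEGFR2) and Flt1 (VEGFR1) on blood endothelium and on Flt4 (VEGFR3) on lymphatic endothelium. Angiopoietins act on Tek (Tie2), with Tie1 as its partner, and hold the mature vessel wall stable. ETS factors such as Erg and Fli1 and SOX factors of the F class (Sox7, Sox17 and Sox18) maintain much of the endothelial expression programme. In the pancreas the islets in particular are supplied by a dense net of fenestrated capillaries, in which Plvap forms the diaphragms of the pores.

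The promoters of 5 of these genes are shown as examples of windows with and without the letters that ETS factors bind, chosen after the values were seen. Eng and Adgrl4 varied with the body of the list, and Flt1 did so less closely. Apln stood low in the Grg3 Grg4-labelled libraries, and Esm1 departed from the rest. Each is the stretch of 250 bases before the RefSeq transcript start, on the gene's own strand, in build GRCm38.p6. Capitals mark matches to AGGAAG or CGGAAG, the core letters bound by ETS factors, on either strand (CTTCCT or CTTCCG when read on the printed strand).
Flt1, chr5:147726012-147726261, minus strand: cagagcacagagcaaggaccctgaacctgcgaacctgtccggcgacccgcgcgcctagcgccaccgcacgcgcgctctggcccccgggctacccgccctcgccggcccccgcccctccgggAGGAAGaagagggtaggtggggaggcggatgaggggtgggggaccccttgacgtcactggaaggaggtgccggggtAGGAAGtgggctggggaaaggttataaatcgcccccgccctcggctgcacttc
Eng, chr2:32646345-32646594, plus strand: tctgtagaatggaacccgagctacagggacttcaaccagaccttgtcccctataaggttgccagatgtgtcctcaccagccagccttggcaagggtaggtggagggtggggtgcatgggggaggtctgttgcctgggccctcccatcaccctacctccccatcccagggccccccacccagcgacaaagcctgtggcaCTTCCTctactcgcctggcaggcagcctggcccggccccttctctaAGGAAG
Adgrl4, chr3:151437632-151437881, plus strand: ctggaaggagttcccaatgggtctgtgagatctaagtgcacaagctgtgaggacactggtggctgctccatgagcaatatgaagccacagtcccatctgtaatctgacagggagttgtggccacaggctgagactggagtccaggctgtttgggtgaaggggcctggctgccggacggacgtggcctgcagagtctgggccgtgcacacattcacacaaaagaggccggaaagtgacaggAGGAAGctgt
Apln, chrX:48034854-48035103, minus strand: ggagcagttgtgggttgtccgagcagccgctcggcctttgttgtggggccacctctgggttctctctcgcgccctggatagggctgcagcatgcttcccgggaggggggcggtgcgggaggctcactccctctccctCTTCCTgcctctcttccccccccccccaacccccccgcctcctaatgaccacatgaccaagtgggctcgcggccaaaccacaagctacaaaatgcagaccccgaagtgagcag
Esm1, chr13:113209409-113209658, plus strand: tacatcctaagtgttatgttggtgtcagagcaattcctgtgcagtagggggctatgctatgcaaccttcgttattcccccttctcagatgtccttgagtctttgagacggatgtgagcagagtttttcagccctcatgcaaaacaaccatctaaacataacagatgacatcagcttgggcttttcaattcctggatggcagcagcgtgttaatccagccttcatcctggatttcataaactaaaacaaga
The Flt1 and Eng windows hold 2 such matches each, the Adgrl4 and Apln windows hold 1 each, and the Esm1 window holds 0.

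RefSeq promoter entries were matched for 17 of the 32 genes. An ETS core stood within 250 bases before the start in 9 of these 17 (52.9%), beside 39% of all 27025 promoters searched in the same way, 1 per gene. Egfl7 and Erg have 3 promoter entries each and Tal1 has 2, and only the first entry of each was searched. The other 8 held 0, namely Kdr, Flt4, Tek, Cldn5, Erg, Esm1, Clec14a and Tal1. Of these, Esm1 and Tal1 departed from the rest of the list, while Erg and Clec14a varied with it. Egfl7, which also departed from the rest, held 3. A link between the matches and how closely a gene varied with the list was not tested. AGGAAG alone was found in 9 of 17 (52.9%), against 29.2% of all promoters, and CGGAAG in 1 of 17 (5.88%), against 13.8%. ACAATG, a core of SOX factor sites, was in 0 of 17 windows and in 11% of all promoters. AGATAA, a core of GATA factor sites, was in 1 of 17 (5.88%, the Tal1 window) and in 10.3% of all promoters. A match is a match of letters and was not tested for binding.

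The control pancreas expressed the whole list. Compared per kilobase of exon, Plvap led with 91.6 ± 5.72 CPM per kb, followed by Cdh5 (VE-cadherin, the endothelial adherens junction protein) with 59.7 ± 0.840 CPM per kb (SD, n = 3 each). Eng (endoglin, a co-receptor for TGF-beta and BMP) came next with 50.4 ± 1.84 CPM per kb, then Pecam1 (CD31) with 30.4 ± 1.17 CPM per kb and Aplnr, the apelin receptor, with 26.7 ± 0.735 CPM per kb. The control ranges of these 5 genes did not overlap between neighbours in the order. Sox18 stood at 23.5 ± 2.44 CPM per kb, and its range did not reach that of Cldn5, the next gene.

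A dense middle field followed in the control order. It ran from Cldn5 at 16.2 ± 3.26 CPM per kb through Kdr (14.5), Lyve1 (14.2), Esam (13.9) and Tie1 (13.7) to Egfl7 (12.1), Ramp2 (11.5) and Apln (10.5). Within it, neighbours overlapped in their control ranges except at Tie1 against Egfl7. From Robo4 (8.62 CPM per kb) down to Emcn (4.96 CPM per kb), every neighbouring pair overlapped, which covers Fli1, Icam2, Tek, Mmrn2, Clec14a, Sox7, Erg, Flt1 and Rasip1. The low end held Flt4 (3.39), Sox17 (3.14), Vwf (3.01), Adgrl4 (2.78) and Nos3 (2.35). Esm1 at 1.72 ± 0.0924 CPM per kb and Tal1 at 1.17 ± 0.382 CPM per kb closed the order. Flt4, Sox17 and Vwf each overlapped the next gene of the order, while Adgrl4, Nos3 and Esm1 did not.

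Grg3-labelled replicate 2 stood apart from the other libraries. It held the highest value of the 9 libraries for 27 of the 32 genes, whereas it held the highest value for 16.5% of all genes tested. It lay above all 3 controls for 28 of the 32. The 5 genes whose highest value lay elsewhere were Kdr, Apln, Egfl7, Esm1 and Tal1. The summed level of the 32 genes was 1587, 1468 and 1813 CPM in the Grg3 Grg4-labelled libraries. It was 1779, 2346 and 1650 CPM in the Grg3-labelled libraries and 1828, 1885 and 1814 CPM in the controls. The 3 controls lay close together, Grg3-labelled replicate 2 stood above every other library, and Grg3 Grg4-labelled replicates 1 and 2 were the lowest.

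**Figure D1:**
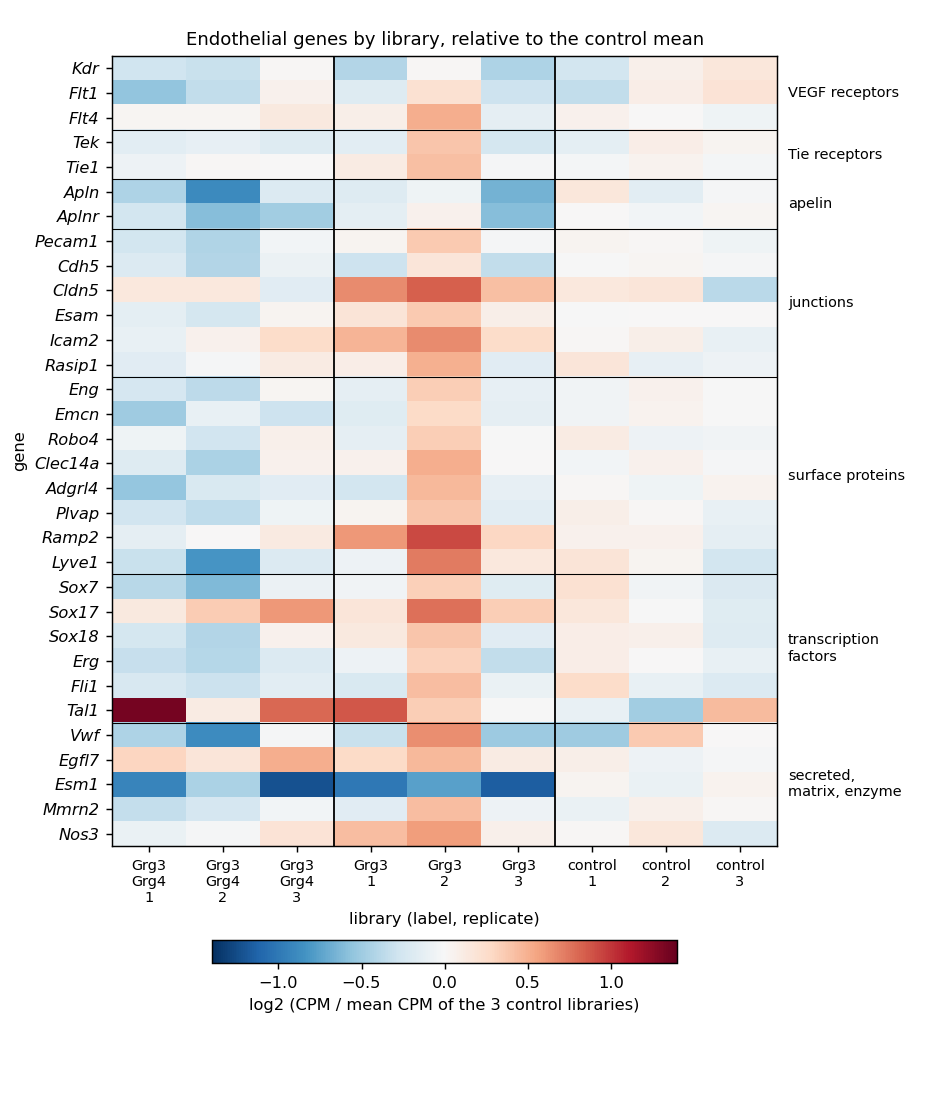
Level of each of the 32 genes (rows, grouped by role) in each of the 9 libraries (columns), as log2 of its CPM over the mean of the 3 controls, so that red is above and blue below the control mean. The column of Grg3-labelled replicate 2 is red for nearly every gene, Esm1 is blue in all 6 mutant libraries, and Egfl7 and Sox17 are red in all 6.

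Marker genes of other cell types also stood apart in the same library, and their part in the result was not tested. In Grg3-labelled replicate 2 the 9 mesenchyme genes summed to 13848 CPM, above 8711 to 10792 CPM in the other 8 libraries. None of the mesenchyme, acinar or smooth muscle genes was at 0 in a group. The 20 acinar enzyme genes summed to 208745 CPM there, the lowest of all libraries (252682 to 440112 CPM in the others). The 8 smooth muscle genes summed to 1005 CPM in Grg3-labelled replicate 2 and in Grg3 Grg4-labelled replicate 2, against 131 to 451 CPM elsewhere. Grg3 Grg4-labelled replicate 2 also had 2548 CPM over 9 striated muscle genes, against 3.59 to 77.4 CPM in the other libraries, with 1 of the 9 genes at 0 throughout the Grg3-labelled group and 1 throughout the controls. In whole-organ RNA, a smaller share of endothelial cells and less of a transcript per endothelial cell cannot be told apart.

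**Figure D2:**
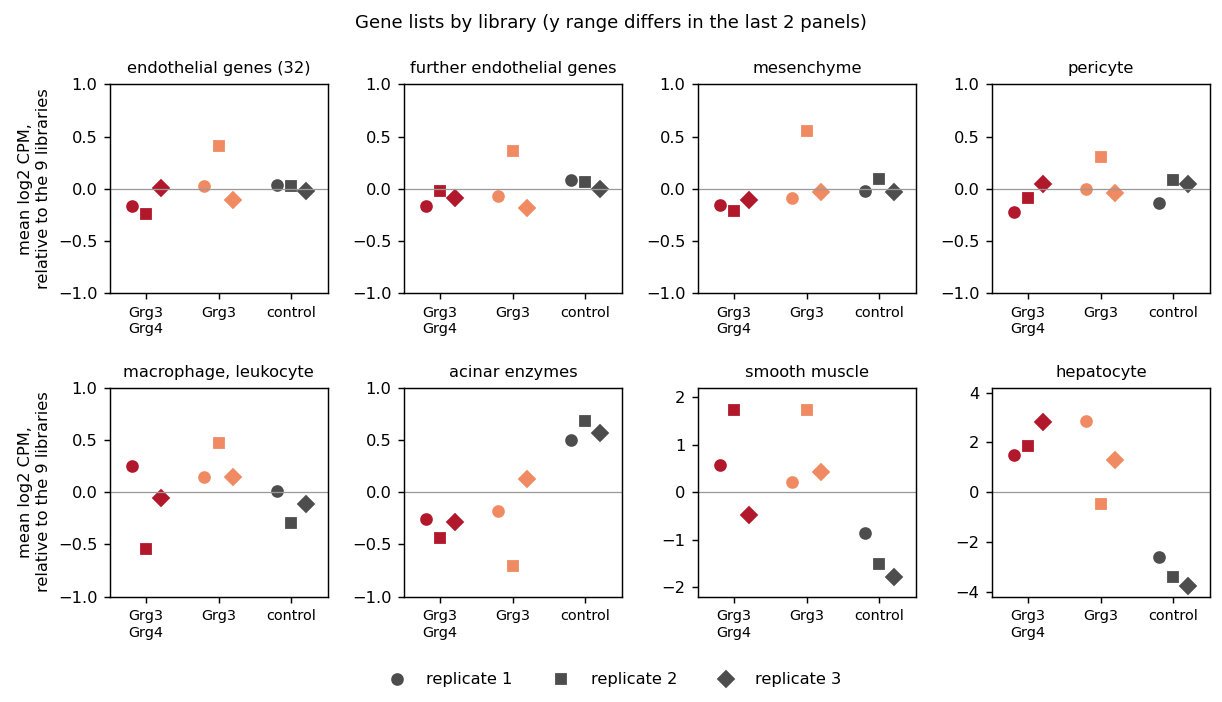
Mean log2 CPM over the genes of 8 lists in each library, relative to the mean of the 9 libraries (points, 1 per library, shaped by replicate). The 32 endothelial genes, the further endothelial genes and the mesenchyme genes each have their highest point in Grg3-labelled replicate 2, and the acinar list has its lowest point there. The last 2 panels have wider axes.

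No gene of the list passed the test in any comparison. At a Benjamini-Hochberg adjusted p under 0.05 (edgeR quasi-likelihood F test, 2-sided, over all genes tested), 0 of 32 were called between Grg3 Grg4-labelled and control libraries, where 2.14% of all genes were called. Between Grg3-labelled and control libraries 0 of 32 were called, beside 1.4% of all genes, and between Grg3 Grg4- and Grg3-labelled libraries 0 of 32, beside 0.188%. At an unadjusted p under 0.05, edgeR counted 5 of 32 (15.6%), 8 of 32 (25%) and 10 of 32 (31.2%) in these 3 comparisons, against 20.2%, 19.1% and 17.3% of all genes. Leaving out 1 library moved these unadjusted edgeR counts. Without Grg3-labelled replicate 2 they were 14, 7 and 4 of 32, against 23.1%, 18.7% and 17.7% of all genes. Without control replicate 2 they were 3, 5 and 7, against 13.8%, 14.1% and 15.6%. Without control replicate 3 the middle count was 4, against 12.7% of all genes. The last count was 5 and 6 without Grg3 Grg4-labelled replicates 1 and 2 (15.4% and 13.1% of all genes) and 15 without Grg3-labelled replicate 3 (17.1%). DESeq2, another count test, called 1, 4 and 3 of the 32, and it called 8.16%, 8% and 5.81% of all genes to which it gave an adjusted p in these comparisons. The genes it called are named with their values below.

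The direction of the list still differed between comparisons. Of the 32 genes, 24 lay below 0 between Grg3 Grg4-labelled and control libraries, with a median log2 change of -0.19 (all genes tested: 0.01). Between Grg3-labelled and control libraries 26 lay above 0, with a median of 0.10 (all genes: 0.02). Between Grg3 Grg4- and Grg3-labelled libraries 28 lay below 0, with a median of -0.29 (all genes: 0). The first pair of comparisons shares its control libraries, and each mutant group enters 2 comparisons, so the 3 values are not separate pieces of evidence. With embryo sex as a term in the fit, the first median was -0.07. In that comparison 0.157% of all genes were then called, against 2.14% without the term. All Grg3 Grg4-labelled libraries but only 1 control were male, so sex and group can hardly be told apart there. With limma voom the median between Grg3-labelled and control libraries was 0.02, with 18 of 32 above 0 (all genes: 0.01), and that between the mutant groups was -0.16.

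**Figure D3:**
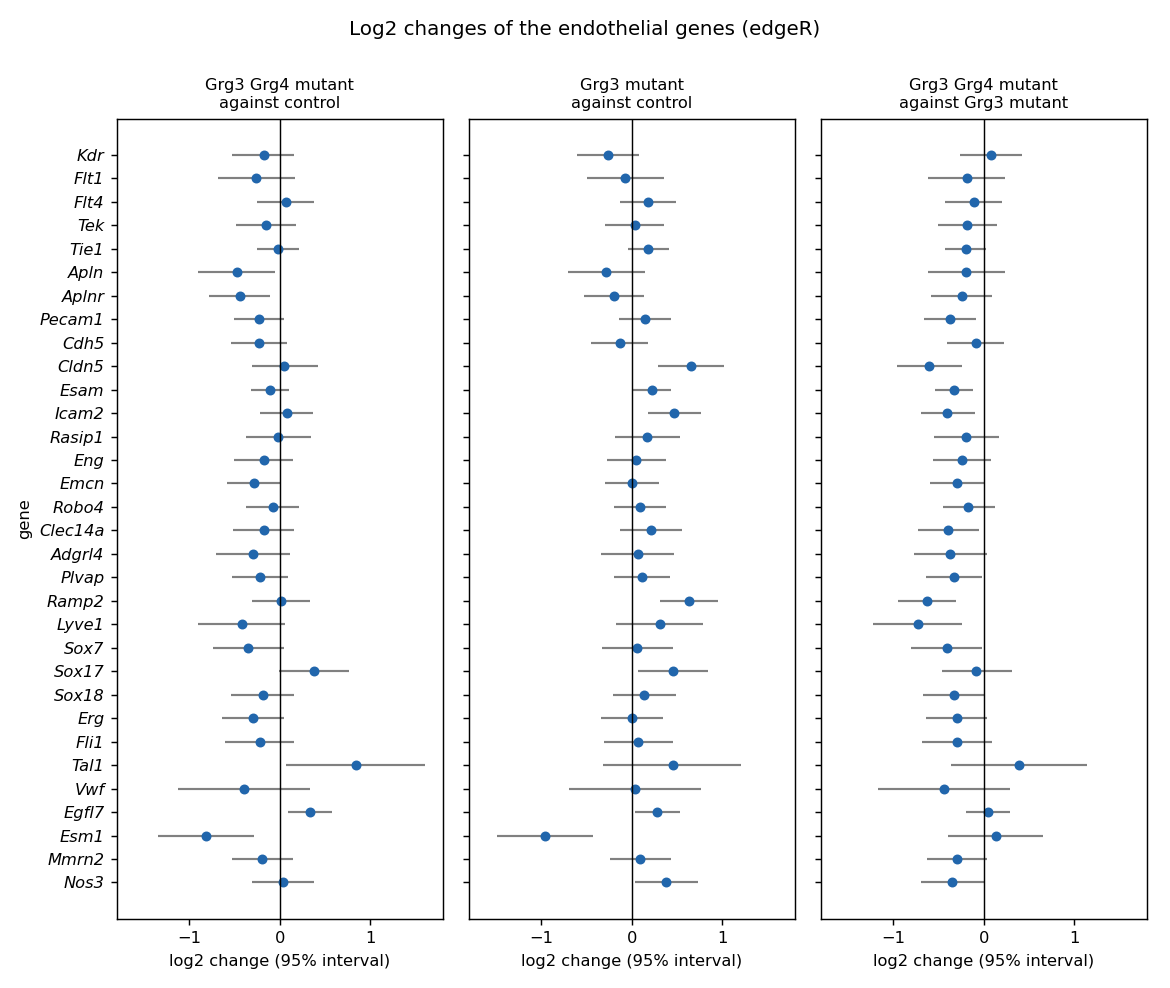
Log2 change of each of the 32 genes (points) with its 95% interval from edgeR (lines), in the 3 comparisons, with the genes ordered by role from top to bottom. Most points lie left of 0 in the left and right panels (24 and 28 of 32) and right of 0 in the middle panel (26 of 32), and Esm1 lies farthest left in the panels that compare mutant with control libraries.

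Without Grg3-labelled replicate 2, the median change between Grg3-labelled and control libraries turned from 0.10 to -0.06, with 12 genes above 0 and 20 below. The median between Grg3 Grg4- and Grg3-labelled libraries moved from -0.29 to -0.08, with 10 above and 22 below. The median between Grg3 Grg4-labelled and control libraries was -0.19 with or without it. Neither of those groups holds this library, so leaving it out could hardly move that median. The unchanged value is therefore no sign that it is stable. At the other end, Grg3 Grg4-labelled replicate 2 was the lowest library for 14 of the 32 genes, against 12.7% of all genes, and without it the median against control was -0.13.

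Much of the variation was common to the list. When the mean log2 level of the other 31 genes in the same library was subtracted, the SD over the 9 libraries became smaller for 29 of the 32 genes. The median SD fell by this step from 0.24 to 0.16 on the log2 scale, while without it the median SD was 0.26 over all genes tested and 0.19 over those within the list's range of mean CPM. Plvap kept closest to the others (SD 0.05), followed by Eng (0.07) and Pecam1 (0.08). The exceptions were Egfl7, Esm1 and Tal1, whose SD was 0.22, 0.55 and 0.63 after the subtraction, against 0.20, 0.50 and 0.56 before it.

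Of the VEGF receptors none was called, and for each the values of each mutant group overlapped those of the controls. Kdr had 108, 105 and 132 CPM in the Grg3 Grg4-labelled libraries, 98.4, 132 and 96.7 CPM in the Grg3-labelled libraries and 109, 137 and 146 CPM in the controls. Its log2 change was -0.18 ± 0.15 (SE) for Grg3 Grg4-labelled and -0.26 ± 0.15 for Grg3-labelled libraries against control (edgeR adjusted p = 0.548 and 0.382). Flt1 ranged from 52.8 to 80.6 CPM, from 63.2 to 89.4 CPM and from 60.9 to 88.6 CPM in the Grg3 Grg4-labelled, Grg3-labelled and control libraries. Flt4 had 28.5 to 30.8 CPM, 25.6 to 39.8 CPM and 26.7 to 29.1 CPM in the same groups.

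Kdr stood low in the Grg3-labelled libraries relative to the rest of the list. Relative to the mean of the other 31 genes, its log2 level was 1.85, 1.88 and 1.97 in the Grg3 Grg4-labelled libraries, 1.51, 1.55 and 1.63 in the Grg3-labelled libraries and 1.66, 2 and 2.15 in the controls. The Grg3-labelled libraries were the lowest 3 on this relative scale, narrowly so against control replicate 1 (1.63 against 1.66). The same held for Cdh5, with 2.6, 2.69 and 2.69 in the Grg3-labelled libraries and 2.75 or more in all others. Relative to the mean of the whole list, Kdr differed from control by -0.36 in Grg3-labelled libraries (limma adjusted p = 0.363). Between the mutant groups the difference was 0.33 (limma adjusted p = 0.275), so Kdr was called in neither comparison. Kdr was singled out after its values were seen.

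The Tie receptors differed little between groups. Tie1 had 64.5, 68.1 and 67.6 CPM in the Grg3 Grg4-labelled, 73.1, 90.2 and 67.0 CPM in the Grg3-labelled and 66.3, 70.0 and 66.4 CPM in the control libraries. Tek had 29.6 to 31.0 CPM, 28.4 to 43.9 CPM and 30.6 to 35.8 CPM in these groups. The log2 changes of both receptors against control ran from -0.15 to 0.18.

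Genes for the partners of these receptors, taken as a list of 9 that holds Vegfa, Vegfb, Vegfc, Vegfd, Pgf, the angiopoietins Angpt1 and Angpt2 and the co-receptors Nrp1 and Nrp2, gave no call in any comparison. Their summed level was 425 to 476 CPM in Grg3 Grg4-labelled, 421 to 478 CPM in Grg3-labelled and 456 to 467 CPM in control libraries. Their median log2 change was -0.09 for Grg3 Grg4-labelled and -0.05 for Grg3-labelled libraries against control.

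The apelin pair stood low in the Grg3 Grg4-labelled libraries and, relative to the rest of the list, in both mutant groups. Apln (chrX:48025146-48034853), the apelin ligand made by sprouting tip cells, had 24.5, 17.8 and 29.0 CPM there, 29.1, 31.6 and 20.8 CPM in the Grg3-labelled libraries and 36.7, 29.7 and 32.6 CPM in the controls. All 3 Grg3 Grg4-labelled libraries lay below all 3 controls, while the Grg3-labelled libraries overlapped them. Apln differed from control by -0.47 ± 0.19 on the log2 scale in Grg3 Grg4-labelled libraries (95% interval -0.90 to -0.05, edgeR adjusted p = 0.205). The difference was -0.28 ± 0.19 for Grg3-labelled libraries (-0.71 to 0.15, edgeR adjusted p = 0.462), and -0.20 ± 0.19 between the mutant groups (-0.62 to 0.23, edgeR adjusted p = 0.631).

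Aplnr had 82.6, 65.4 and 70.7 CPM in the Grg3 Grg4-labelled, 90.0, 103 and 65.2 CPM in the Grg3-labelled and 99.4, 96.0 and 101 CPM in the control libraries. The Grg3 Grg4-labelled values again lay below every control. The log2 change of Aplnr for Grg3 Grg4-labelled libraries against control was -0.44 ± 0.15 (edgeR adjusted p = 0.143). When the fit held only these 6 libraries, Aplnr was called (edgeR adjusted p = 0.0430), as were 4.07% of all genes.

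At the cell junctions, Pecam1 (chr11:106654217-106750628), an adhesion protein of endothelial contacts, had 159, 141 and 184 CPM in the Grg3 Grg4-labelled libraries. It had 195, 245 and 187 CPM in the Grg3-labelled libraries and 195, 192 and 181 CPM in the controls. The Grg3 Grg4-labelled values lay below all Grg3-labelled values and overlapped the controls. The log2 change of Pecam1 was -0.23 ± 0.13 for Grg3 Grg4-labelled libraries against control (95% interval -0.51 to 0.05, edgeR adjusted p = 0.348). It was 0.15 ± 0.13 for Grg3-labelled libraries against control (-0.14 to 0.43, edgeR adjusted p = 0.568) and -0.37 ± 0.13 between the mutant groups (-0.66 to -0.09, edgeR adjusted p = 0.183).

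Cdh5 (chr8:104101625-104144511) had 219, 188 and 236 CPM in the Grg3 Grg4-labelled libraries, 205, 282 and 198 CPM in the Grg3-labelled libraries and 249, 255 and 248 CPM in the controls. The controls spanned only 248 to 255 CPM, the Grg3 Grg4-labelled values all lay below them, and the Grg3-labelled values fell on both sides. The log2 change of Cdh5 against control was -0.23 ± 0.14 for Grg3 Grg4-labelled libraries (-0.54 to 0.08, edgeR adjusted p = 0.398). It was -0.13 ± 0.14 for Grg3-labelled libraries (-0.45 to 0.18, edgeR adjusted p = 0.644), and -0.09 ± 0.14 between the mutant groups (-0.41 to 0.22, edgeR adjusted p = 0.766).

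Cldn5 (chr16:18776847-18778262) encodes claudin-5, the main tight junction protein of endothelium. It had 25.5, 25.4 and 20.5 CPM in the Grg3 Grg4-labelled libraries, 36.3, 41.1 and 30.8 CPM in the Grg3-labelled libraries and 25.4, 25.8 and 17.6 CPM in the controls. The 3 Grg3-labelled values lay above the other 6. The log2 change of Cldn5 between Grg3-labelled and control libraries was 0.65 ± 0.16 (95% interval 0.29 to 1.02, edgeR adjusted p = 0.0808), and 0.55 without Grg3-labelled replicate 2. It was -0.60 ± 0.16 between Grg3 Grg4- and Grg3-labelled libraries (-0.96 to -0.24, edgeR adjusted p = 0.127) and 0.05 ± 0.16 between Grg3 Grg4-labelled and control libraries (-0.31 to 0.42, edgeR adjusted p = 0.888). DESeq2 called Cldn5 in the first 2 of these comparisons (adjusted p = 0.00621 and 0.0184).

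Icam2, an adhesion molecule that binds leukocyte integrins, showed a like order, with 12.8, 14.3 and 16.5 CPM in Grg3 Grg4-labelled, 19.1, 21.8 and 16.4 CPM in Grg3-labelled and 13.9, 14.6 and 12.8 CPM in control libraries. Its Grg3-labelled values lay above all controls, with a log2 change of 0.47 ± 0.13 (edgeR adjusted p = 0.105), and DESeq2 called it there (adjusted p = 0.0244). Esam, another junction adhesion molecule, had 36.4, 33.8 and 40.9 CPM, 45.4, 51.6 and 42.3 CPM and 39.7, 40.0 and 40.2 CPM in the same groups. Its Grg3-labelled values also lay above all 6 others. Rasip1, which links Ras-family signals to junctions and lumen formation, overlapped between groups, at 15.9 to 25 CPM over the 9 libraries. Exons of Rasip1 overlap those of Izumo1, so its count is uncertain.

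**Figure D4:**
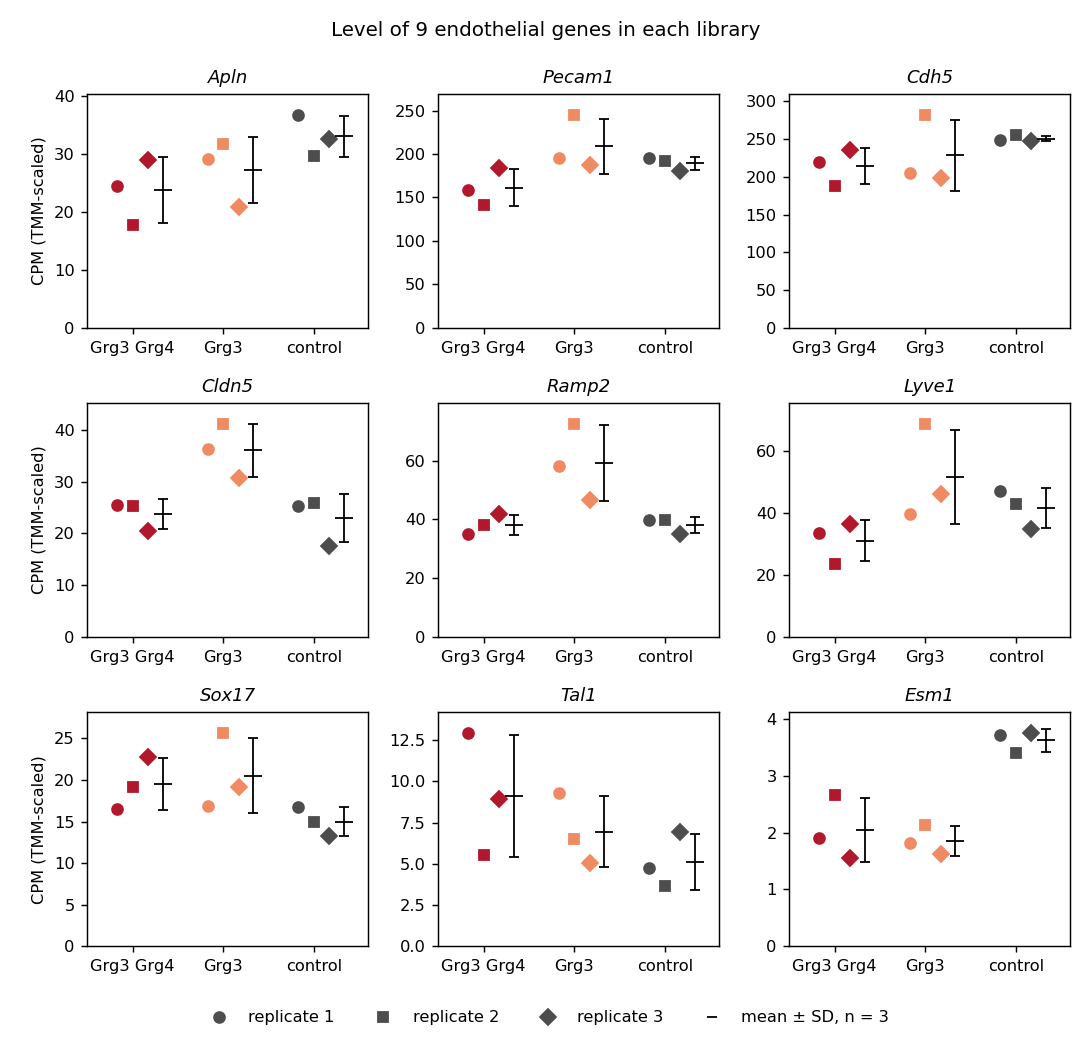
CPM of 9 of the genes in each library (points, shaped by replicate), with the mean and SD of each group (n = 3) beside them and axes starting at 0. Cldn5 and Ramp2 are higher in the 3 Grg3-labelled libraries than in the other 6, Esm1 is lower in all 6 mutant libraries than in the controls, and Tal1 spreads widely within each group.

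Among the other surface proteins, Ramp2 (chr11:101246028-101259546) turns the calcitonin-receptor-like receptor into a receptor for adrenomedullin, a peptide that vessels need. It had 34.9, 38.2 and 41.7 CPM in the Grg3 Grg4-labelled libraries, 58.2, 72.4 and 46.7 CPM in the Grg3-labelled libraries and 39.7, 39.7 and 34.9 CPM in the controls. As with Cldn5, the 3 Grg3-labelled values lay above the other 6. The log2 change of Ramp2 was 0.63 ± 0.14 for Grg3-labelled libraries against control (95% interval 0.31 to 0.95, edgeR adjusted p = 0.0629), and 0.46 without Grg3-labelled replicate 2.

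Between Grg3 Grg4- and Grg3-labelled libraries the log2 change of Ramp2 was -0.63 ± 0.14 (-0.95 to -0.31, edgeR adjusted p = 0.0983). Between Grg3 Grg4-labelled and control libraries it was 0.01 ± 0.14 (-0.31 to 0.33, edgeR adjusted p = 0.987). Without Grg3-labelled replicate 3, Ramp2 was called against control (edgeR adjusted p = 0.0246, beside 1.24% of all genes), and DESeq2 on all 9 libraries called it for Grg3-labelled libraries against control and between the mutant groups (adjusted p = 0.0024 and 0.00391). Exons of Ramp2 share 1103 bases with Vps25 on the same strand, so its count is uncertain.

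Lyve1 (chr7:110850607-110863239) is the hyaluronan receptor of lymphatic endothelium, and some macrophages use it as well. It had 33.5, 23.5 and 36.3 CPM in the Grg3 Grg4-labelled libraries, 39.7, 68.6 and 46.1 CPM in the Grg3-labelled libraries and 47.2, 42.8 and 34.7 CPM in the controls. The mutant groups did not overlap, and each overlapped the controls. The log2 change of Lyve1 was -0.42 ± 0.22 for Grg3 Grg4-labelled libraries against control (-0.91 to 0.06, edgeR adjusted p = 0.312) and 0.31 ± 0.22 for Grg3-labelled libraries against control (-0.18 to 0.79, edgeR adjusted p = 0.475). Between the mutant groups it was -0.73 ± 0.22 (-1.22 to -0.24, edgeR adjusted p = 0.150), and -0.47 without Grg3-labelled replicate 2. DESeq2 called Lyve1 between the mutant groups (adjusted p = 0.0240).

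The 13 macrophage and leukocyte genes summed to 487, 288 and 385 CPM in the Grg3 Grg4-labelled, 461, 508 and 498 CPM in the Grg3-labelled and 428, 362 and 396 CPM in the control libraries. Their lowest sum was in Grg3 Grg4-labelled replicate 2 and their highest in Grg3-labelled replicate 2, as for Lyve1. In Grg3 Grg4-labelled replicate 1 the sum lay above every control while Lyve1 lay below every control. Lyz2 alone stood at 110 CPM there, against 25.5 to 41.6 CPM in the controls. Other genes of this list lay on both sides of the controls in that library. Csf1r lay above them (46 CPM, against 36.5 to 40.5 CPM) and Mrc1 below (48.1 CPM, against 58.4 to 61.3 CPM). None of the 13 was at 0 in a group, and their part in the Lyve1 values was not tested. The 6 further lymphatic genes (Prox1, Pdpn, Ccl21a, Reln, Mmrn1 and Foxc2) gave no call. They summed to 95.7 to 111 CPM, 91.3 to 118 CPM and 85.9 to 103 CPM in the Grg3 Grg4-labelled, Grg3-labelled and control libraries. Prox1 alone made up 36.9 to 60.9 CPM of these sums. Against control, 4 of the 6 lay above 0 and 2 below in each mutant group. The median log2 changes were 0.41 (Grg3 Grg4-labelled) and 0.56 (Grg3-labelled). These medians include weak genes, as Ccl21a stood at 0.892 CPM or less in every library. They also include Foxc2, which had 16.4 CPM in Grg3 Grg4-labelled replicate 2, against 1.97 and 1.53 CPM in replicates 1 and 3. Mmrn1 averaged 14.7 ± 1.94 CPM in Grg3-labelled libraries, all above the controls at 5.96 ± 2.23 CPM (SD). Its log2 change there was 1.31 ± 0.29 (SE, edgeR adjusted p = 0.0608).

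The remaining surface proteins followed the common pattern. Plvap had 151, 143 and 175 CPM in the Grg3 Grg4-labelled, 187, 239 and 164 CPM in the Grg3-labelled and 193, 184 and 170 CPM in the control libraries. Eng, which shares 61 exon bases with Fpgs on the opposite strand, had 158 to 208 CPM, 187 to 260 CPM and 197 to 212 CPM in these groups. Emcn (endomucin), with 19, 25 and 21.9 CPM, and Adgrl4 (a latrophilin-like adhesion receptor), with 8.74, 11 and 11.4 CPM, lay below all controls in the Grg3 Grg4-labelled libraries. Their controls had 25.9 to 27.8 CPM and 12.2 to 13.2 CPM. Robo4 and Clec14a overlapped between each mutant group and the controls, at 38.0 to 58.2 CPM and 22.6 to 43.8 CPM over the 9 libraries.

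Among the transcription factors, the SOX factors of the F class did not lie on the same side of the controls in the Grg3 Grg4-labelled libraries. Sox17 (chr1:4490931-4497354) had 16.5, 19.2 and 22.8 CPM in the Grg3 Grg4-labelled libraries, 16.9, 25.6 and 19.1 CPM in the Grg3-labelled libraries and 16.8, 14.9 and 13.3 CPM in the controls. All Grg3-labelled values lay above the controls, narrowly in replicate 1, and 2 of 3 Grg3 Grg4-labelled values did. Against control, the log2 change of Sox17 was 0.38 ± 0.17 for Grg3 Grg4-labelled (95% interval -0.01 to 0.76, edgeR adjusted p = 0.256) and 0.45 ± 0.17 for Grg3-labelled libraries (0.07 to 0.84, edgeR adjusted p = 0.195). Between the mutant groups it was -0.08 ± 0.17 (-0.46 to 0.31, edgeR adjusted p = 0.853).

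Without Grg3-labelled replicate 2, the change of Sox17 between Grg3-labelled and control libraries was 0.26. Sox17 also shares 804 exon bases with Gm37587 on the opposite strand. The sources used here do not say whether counting used strand, so reads of that gene cannot be told apart from its own. Sox18 had 28.6 to 39.7 CPM, 34.1 to 49.9 CPM and 33.5 to 40.6 CPM in the Grg3 Grg4-labelled, Grg3-labelled and control libraries. Sox7 had 13.6 to 19.8 CPM, 18.6 to 26.3 CPM and 18.2 to 24.3 CPM. Their log2 changes for Grg3 Grg4-labelled libraries against control were -0.19 ± 0.16 and -0.35 ± 0.18, below 0 where Sox17 was above it. The difference between Sox17 and the other two was not tested.

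The ETS factor Erg had 16.3, 15.4 and 17.8 CPM in the Grg3 Grg4-labelled libraries, 19.4, 25.5 and 16.1 CPM in the Grg3-labelled libraries and 21.7, 20.5 and 18.9 CPM in the controls, so that the Grg3 Grg4-labelled values lay below all controls. Its relative Fli1 had 21.8, 20.7 and 22.9 CPM, 21.9, 34.4 and 23.9 CPM and 30.5, 23.6 and 22.2 CPM in the same groups, which overlapped. Fli1 is also made by megakaryocytes, whose 8 listed genes summed to 10 to 14.4 CPM, 18.2 to 25.2 CPM and 14.9 to 16.0 CPM, with 1 gene at 0 throughout. Their part in the Fli1 values was not tested.

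Tal1 (chr4:115056426-115071755), a factor of early endothelium and of blood-forming cells, had 12.9, 5.51 and 8.92 CPM in the Grg3 Grg4-labelled libraries. It had 9.29, 6.49 and 5.07 CPM in the Grg3-labelled libraries and 4.74, 3.64 and 6.93 CPM in the controls. Groups overlapped throughout, and the spread within the Grg3 Grg4-labelled group (SD 3.72 CPM) was the widest. Against control, the log2 change of Tal1 was 0.84 ± 0.34 for Grg3 Grg4-labelled (0.07 to 1.60, edgeR adjusted p = 0.209) and 0.45 ± 0.34 for Grg3-labelled libraries (-0.32 to 1.21, edgeR adjusted p = 0.512). It was 0.39 ± 0.34 between the mutant groups (-0.36 to 1.14, edgeR adjusted p = 0.585).

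Within each mutant group, erythroid genes were highest in the library where Tal1 was highest. The erythroid list summed to 3420, 1703 and 1729 CPM in the Grg3 Grg4-labelled libraries, 3394, 2591 and 1935 CPM in the Grg3-labelled libraries and 2056, 1698 and 1678 CPM in the controls. The highest sums belong to replicate 1 of each mutant group, which also had the highest Tal1 of their groups. Among the controls Tal1 was highest in replicate 3, as was the mean log2 CPM of the erythroid genes (0.12 relative to all 9 libraries, against -0.86 and -1.24 in control replicates 1 and 2), while their sum was highest in replicate 1. No erythroid gene that was measured was at 0 in a group, and the part of these cells in the Tal1 values was not tested.

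Among the secreted proteins, Esm1 (chr13:113209659-113218098) had the lowest log2 change of the list against control in both mutant groups. It encodes endocan, a proteoglycan of tip cells that VEGF induces. It had 1.91, 2.66 and 1.55 CPM in the Grg3 Grg4-labelled libraries, 1.81, 2.14 and 1.62 CPM in the Grg3-labelled libraries and 3.72, 3.39 and 3.74 CPM in the controls. All 6 mutant values lay below all 3 controls, including Grg3-labelled replicate 2, which held the highest value of 27 of the 32 genes. The mutant groups averaged 2.04 ± 0.566 and 1.86 ± 0.263 CPM, against 3.62 ± 0.194 CPM in the controls (SD, n = 3 each).

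Against control, Esm1 had a log2 change of -0.82 ± 0.24 for Grg3 Grg4-labelled libraries (95% interval -1.35 to -0.29, edgeR adjusted p = 0.0972) and -0.96 ± 0.24 for Grg3-labelled libraries (-1.49 to -0.43, edgeR adjusted p = 0.0788). It was 0.14 ± 0.24 between the mutant groups (-0.39 to 0.66, edgeR adjusted p = 0.801). Over the 18 other settings tried, its change against control stayed between -1.06 and -0.66 for Grg3 Grg4-labelled and between -1.07 and -0.87 for Grg3-labelled libraries, and it was called in 2 and 3 of them. DESeq2 was among these in both comparisons (adjusted p = 0.0198 and 0.00485). Without Grg3 Grg4-labelled replicate 2, Esm1 was called between Grg3-labelled and control libraries (edgeR adjusted p = 0.0494, beside 1.66% of all genes). These differences therefore lie at the threshold and depend on the test chosen.

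Egfl7, a secreted matrix protein that guides vessel tubes and hosts miR-126, went the other way. It had 53.3, 48.8 and 61.5 CPM in the Grg3 Grg4-labelled libraries, 52.1, 59.4 and 46.8 CPM in the Grg3-labelled libraries and 46.0, 41.2 and 42.9 CPM in the controls. All 6 mutant values lay above the controls. Its log2 change against control was 0.33 ± 0.11 for Grg3 Grg4-labelled (edgeR adjusted p = 0.134) and 0.28 ± 0.11 for Grg3-labelled libraries (edgeR adjusted p = 0.199). Exons of Egfl7 overlap Gm20532, Mir126a and, on the opposite strand, Agpat2, so its count is uncertain.

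Vwf, the clotting factor carrier stored by endothelium and platelets, had an SD of 0.48 on the log2 scale over the 9 libraries, below Tal1 (0.56) and Esm1 (0.50). It stood at 35.9, 26.3 and 47.8 CPM in Grg3 Grg4-labelled, 39.0, 76.1 and 33.9 CPM in Grg3-labelled and 34.3, 62.3 and 48.5 CPM in control libraries. Mmrn2, a matrix protein of vessel walls, had 21.5 to 26.4 CPM, 24.3 to 36.7 CPM and 25.4 to 28.5 CPM in these groups. Nos3, the endothelial nitric oxide synthase, had 9.07 to 11.1 CPM, 10.2 to 14.6 CPM and 8.49 to 10.8 CPM. Nos3 shares 1334 exon bases with genes on the opposite strand, so its count is uncertain. All 3 genes overlapped between each mutant group and the controls.

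Counted over the whole list, 8 of 32 genes had Grg3 Grg4-labelled values that did not overlap the controls, against 29.1% of all genes tested. They were Egfl7 above and Cdh5, Emcn, Erg, Esm1, Aplnr, Apln and Adgrl4 below. Between Grg3-labelled and control libraries 7 of 32 did not overlap, against 24.6% of all genes. These were Cldn5, Ramp2, Esam, Egfl7, Sox17 and Icam2 above and Esm1 below. Between Grg3 Grg4- and Grg3-labelled libraries 5 of 32 did not overlap, against 21.1% of all genes, and Pecam1, Cldn5, Ramp2, Esam and Lyve1 all lay below. These shares are near or under those of all genes, so the number of separated genes does not set the list apart.

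On the scale of each gene relative to the mean of the 32 in the same library, tested with limma, 0 of 32 genes were called in any comparison. Of all genes, limma called 1.78% between Grg3 Grg4-labelled and control libraries, 0.71% between Grg3-labelled and control libraries and 0.104% between the mutant groups on this scale. The log2 difference of Esm1 against control on this scale was -0.70 for Grg3 Grg4-labelled (limma adjusted p = 0.220) and -1.05 for Grg3-labelled libraries (limma adjusted p = 0.129). Egfl7 differed by 0.47 and Sox17 by 0.52 between Grg3 Grg4-labelled and control libraries (limma adjusted p = 0.107 and 0.135). Cldn5 differed by 0.57 and Ramp2 by 0.52 between Grg3-labelled and control libraries (limma adjusted p = 0.242 and 0.151). This scale removes the level common to the list, so that Grg3-labelled replicate 2 no longer stands out through it.

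Further endothelial genes outside the 32 behaved much like them. Of 30 listed, 29 were tested, among them Cd34, Cd93, S1pr1, Ptprb and Podxl, and 0 were called in any comparison. Their summed level was 1068, 1063 and 1191 CPM in the Grg3 Grg4-labelled libraries, 1130, 1497 and 1089 CPM in the Grg3-labelled libraries and 1202, 1222 and 1237 CPM in the controls, again highest in Grg3-labelled replicate 2. Their median log2 change was -0.15 for Grg3 Grg4-labelled and 0.07 for Grg3-labelled libraries against control, and -0.22 between the mutant groups.

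A list of 17 arterial, venous and Notch pathway genes, among them Dll4, Notch4, Gja5, Efnb2, Ephb4 and Nr2f2, also gave 0 calls, with median log2 changes of -0.04, 0.18 and -0.18 in the same 3 comparisons. The 9 pericyte genes gave 0 calls and summed to 573 to 756 CPM in Grg3 Grg4-labelled, 569 to 682 CPM in Grg3-labelled and 632 to 717 CPM in control libraries. The 8 smooth muscle genes gave 0 calls as well, although all 8 lay above 0 in both comparisons with control, with median log2 changes of 1.67 and 1.75.

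Liver genes were higher in the mutant libraries, and liver vessels have endothelium of their own. Of 14 hepatocyte genes, 10 were called higher in Grg3 Grg4-labelled and 9 in Grg3-labelled libraries against control. Alb, albumin, averaged 477 ± 294 CPM and 298 ± 307 CPM in these groups, against 3.44 ± 1.76 CPM in the controls (SD, n = 3 each). The 9 genes of liver sinusoidal endothelium, such as Stab2, Clec4g and Oit3, gave 0 calls, and none was at 0 in a group. The middle library of each group had a summed level of 23.6 CPM (Grg3 Grg4-labelled), 23.3 CPM (Grg3-labelled) and 15.5 CPM (control), and every mutant library, at 19.2 CPM or more, lay above every control. Single genes did not all share this order. Gpr182 and Clec4g lay above every control in every mutant library, Clec4g at only 0.0209 to 0.288 CPM over the libraries. Stab2 had 4.56 CPM in control replicate 3, against 1.38 to 2.78 CPM in the Grg3-labelled libraries. Grg3 Grg4-labelled replicate 1 had 14.6 CPM of Stab2, and replicate 2 had 4.62 CPM of Wnt9b. The sum of the 9 genes is small beside the 1468 to 2346 CPM of the 32 endothelial genes, and what they add to single members was not tested.

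Genes called in lists of other cell types show that the same libraries and test could detect some changes as large as those of Prss1 and Rnase1. They do not show whether changes as small as most of those in the 32 genes would be called. Of 20 acinar enzyme genes, 6 were called lower in Grg3 Grg4-labelled and 5 in Grg3-labelled libraries against control. Prss1, a trypsinogen, averaged 687 ± 153 CPM and 932 ± 351 CPM in these groups, against 5620 ± 171 CPM in the controls (SD, n = 3 each). For Grg3-labelled libraries against control, Rnase1 was called at a log2 change of -1.06 (edgeR adjusted p = 0.0431). The endocrine gene Chga, at -1.13, was not called in that comparison (edgeR adjusted p = 0.129). Of 12 endocrine genes, 2 (Mafa and Ins2) were called lower in Grg3 Grg4-labelled libraries. Of 7 neural crest and Schwann cell genes, S100b was called lower there. Of the 32 endothelial genes none passed, and the 95% interval of Pecam1 against control spanned -0.51 to 0.05 for Grg3 Grg4-labelled and -0.14 to 0.43 for Grg3-labelled libraries. Changes of this marker within those intervals are not excluded by the data.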

How the data were processed

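RNA-seq of whole pancreas in 9 libraries was analysed from the deposited files, which hold raw read counts per gene symbol for each library, without normalization by the authors. Tools listed in the submitters' processing notes are HISAT2, HTSeq, Trim Galore, FastQC, DESeq2 and bedtools, with builds GRCm38 and mm10. The sources used here give neither their versions nor a strand setting. The 5 rows that name no gene held 28.5% to 33.2% of a library's reads and stayed out.

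The main test was the edgeR 4.0.16 quasi-likelihood F test in R 4.3.3, 2-sided, with TMM scaling. Low genes were removed by filterByExpr (minimum count 10, minimum total 15). The 9 libraries were fitted together, each group having its own mean, and Benjamini-Hochberg adjustment ran over 19166 genes. The SE is the log2 change divided by the square root of F. p-values measure the spread between these libraries only. CPM carries TMM scaling, and log2 CPM a prior count of 2. CPM per kb uses exon lengths of GENCODE M21 on GRCm38, which also gives positions and overlaps. limma 3.58.1 and DESeq2 1.42.0 served for alternatives, and leaving out each library, a stricter filter of 1 CPM in 3 libraries and a sex term were among them. The scripts were tested on simulated data. Promoters came from RefSeq.

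The 32 members and all other lists were chosen with earlier results of these data known. All 32 are named, and Pecam1, Cdh5 and the 2 members with the highest and the 2 with the lowest log2 change in each comparison are given in full. Kdr, Aplnr, Icam2, Egfl7 and others with values per library were added after their values were seen.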

Additional observations from a re-analysis of the deposited data

How the results depend on the processing

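Under 18 alternatives, the count of the 32 genes called and their median log2 change were recomputed, and the cause of each difference was not tested unless stated. Between Grg3 Grg4-labelled and control libraries, where 0 were called, 1 was called with only the 6 libraries compared (Aplnr, beside 4.07% of all genes), 1 with DESeq2 (8.16%) and 1 with limma voom (5.39%), Esm1 in both. Leaving out 1 library gave 0 throughout, with medians from -0.29 to -0.13. Between Grg3-labelled and control libraries, also at 0, the count was 2 without a filter on low counts (Cldn5 and Ramp2, beside 1.76% of all genes), 4 with DESeq2 (8%), 1 with limma voom (Esm1, 2.2%), and 0 to 1 when 1 library was left out (Ramp2 without Grg3-labelled replicate 3, 1.24%, and Esm1 without Grg3 Grg4-labelled replicate 2, 1.66%), with medians from -0.06 to 0.22. Between the mutant groups it was 1 without the filter (Ramp2, 0.684%) and 3 with DESeq2 (5.81%), and 0 with any 1 library left out. The median there was -0.16 with limma voom and ran from -0.37 to -0.08 with 1 library left out. A replicate block called 1 gene between Grg3-labelled and control libraries (Cldn5, edgeR adjusted p = 0.0246, beside 0.871% of all genes) and 0 in the other comparisons (1.33% and 0.0574%). Libraries of the same number correlated by only -0.09 to 0.09 in their deviations, and those of different numbers by -0.15 to 0.16. The numbers thus gave no sign of pairing, which these correlations over all genes cannot exclude.

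Among the 9 genes given in full, these signs turned. Between Grg3 Grg4-labelled and control libraries, a sex term gave -0.02 for Cldn5 and -0.01 for Ramp2, and leaving out 1 library gave -0.11 to 0.15 for Cldn5 and -0.06 to 0.07 for Ramp2. Between the mutant groups, limma voom gave 0.03 for Cdh5 and 0.02 for Sox17. The scale relative to the 32 genes gave 0.16 for Cdh5, 0.04 for Apln and 0.18 for Sox17. Leaving out 1 library gave -0.19 to 0.09 for Cdh5, -0.20 to 0.11 for Sox17 and -0.10 to 0.30 for Esm1. Esm1, at under 4 CPM in every library, rests on the fewest reads of the list.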
